A study of Mus musculus with 36 samples.

Results

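Mitochondrial ribosomal proteins were followed in mouse soleus and extensor digitorum longus (EDL) muscle as the 77 genes, out of 17873 genes with a value, whose symbol is Mrpl or Mrps followed by a number. The symbols gave 48 genes to the large subunit and 29 to the small subunit of the ribosome. All 77 had a value in all 36 libraries, and all 77 passed the filter on low values, a mean signal above the 25th percentile of the genes. Values are quantile-normalized log2 signals, and a change is the difference of group means on that scale, given ± SE.

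The animals were 1-year-old males on the C57BL/6JBom background, and RNA was sequenced from each muscle separately. The temperature given for all samples was 22 °C. Floxed mice carrying Cre recombinase under the human skeletal actin (HSA) promoter made up 3 classes, namely ERRalpha mKO, ERRbeta/ERRgamma dmKO and ERRalpha/ERRgamma dmKO, and each class had its own WT littermates, read here as floxed mice without Cre. That gave 12 groups of 3 libraries. The promoter acts in muscle fibres, so other cells of the muscle keep the receptor genes.

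The signal of the targeted genes fell with the label for Esrra in the ERRalpha/ERRgamma class, and no other targeted gene was called lower in its class. Esrra, the gene of ERRalpha, was 2.90, 3.19 and 3.20 in EDL of the ERRalpha/ERRgamma dmKO-labelled mice, against 5.26, 5.33 and 5.38 in their WT littermates, and it was 5.06, 5.12 and 5.15 against 5.45, 5.66 and 5.95 in soleus. In the ERRalpha class it was 4.92, 5.03 and 5.09 in mKO-labelled EDL against 5.12, 5.20 and 5.29 in WT EDL, a small gap that was not called, and 5.74, 5.86 and 5.96 in mKO-labelled soleus against 5.27, 5.43 and 5.86 in WT soleus. Esrrg, the gene of ERRgamma, ran against the labels. It was higher in dmKO-labelled soleus of the ERRalpha/ERRgamma class (4.84, 4.92 and 4.92 against 3.54, 3.64 and 3.86 in WT) and of the ERRbeta/ERRgamma class (4.22, 4.45 and 4.56 against 3.06, 3.36 and 3.52 in WT), and in EDL it was 1.45 to 2.08 in dmKO-labelled libraries against 0.96 to 1.41 in WT libraries of the first class and 1.74 to 2.05 against 1.35 to 1.58 in the second. Esrrg was also higher in the ERRalpha class, which does not target it. There it was 1.87, 1.91 and 2.07 in mKO-labelled EDL against 1.25, 1.25 and 1.51 in WT EDL. In soleus of that class it was higher too, without overlap of the groups. Esrrb, the gene of ERRbeta, was not called in the ERRbeta/ERRgamma class. It was 2.76, 2.97 and 3.02 in dmKO-labelled soleus against 2.52, 2.57 and 2.81 in WT soleus. In EDL of that class it was -0.07, -0.05 and 0.11 in dmKO-labelled libraries against 0.12, 0.18 and 0.23 in WT libraries. The ERRalpha/ERRgamma class does not target Esrrb, but its signal ran from -1.41 to -0.95 in dmKO-labelled EDL. In WT EDL of that class it ran from 0.05 to 0.73. A whole-gene signal need not show the loss of an exon, so groups are called mKO-labelled and dmKO-labelled. Depth is unknown after quantile normalization, and 13667 to 14951 genes were detected per library.

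Mitochondrial ribosomes translate the few messages that mitochondrial DNA encodes, all of them for core subunits of the respiratory chain and ATP synthase. Their ribosomal RNAs come from mitochondrial DNA, while every protein is encoded in the nucleus, made in the cytosol and imported. Many of the proteins descend from those of bacterial ribosomes, and others were added in the mitochondrial lineage. ERRs are orphan nuclear receptors that act with PGC-1 coactivators on nuclear genes of oxidative metabolism, which muscle fibres rich in mitochondria express strongly. The genes of the mitochondrial ribosomal RNAs have empty cells in every library and were not analysed here.

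In EDL of the ERRalpha/ERRgamma class, 38 of the 77 genes fell and 1 rose. Over all genes tested in this comparison 18.1% were called, 6.95% as lower and 11.1% as higher. Mean levels were below WT for 68 of the 77, and the median change was -0.30, against 0.125 over all genes. Called means a Benjamini-Hochberg adjusted p under 0.05 in limma, over all genes of a comparison. In these whole-muscle samples fewer cells of a type and less RNA per cell cannot be told apart. The map of all changes shows where the falls lie.

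**Figure D1:**
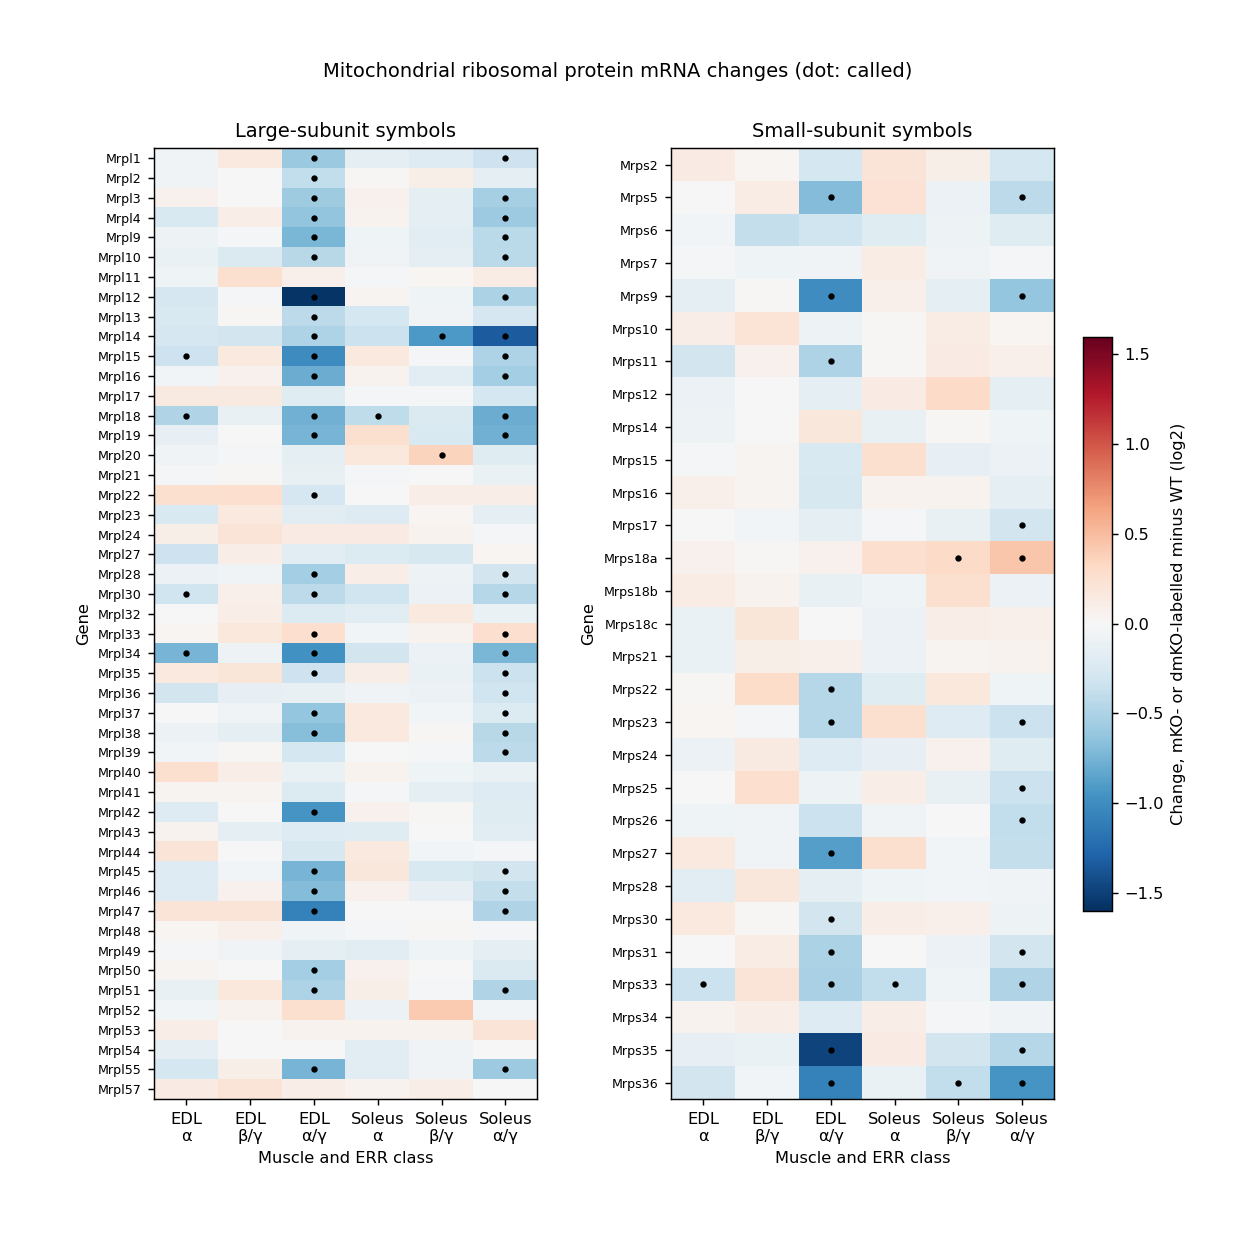
Changes of the 77 mitochondrial ribosomal protein genes (rows, large-subunit symbols left and small-subunit symbols right) in the 6 comparisons of mKO- or dmKO-labelled with WT libraries (columns, muscle and ERR class), as log2 differences of group means of 3 libraries each. A dot marks a called change. Calls gather in the ERRalpha/ERRgamma class, with 39 in EDL and 36 in soleus.

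Mrpl12 encodes the stalk protein of the large subunit, which recruits translation factors and also binds the mitochondrial RNA polymerase. Its signal was 4.81, 4.97 and 4.98 in dmKO-labelled EDL and 6.44, 6.47 and 6.56 in WT EDL. No dmKO-labelled library came near a WT one. The change was -1.57 ± 0.10, leaving 33.7% of the WT signal (limma adjusted p = 3.75e-13).

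Mrps35 encodes a small-subunit protein without a bacterial counterpart. Its dmKO-labelled EDL libraries gave 2.01, 2.19 and 2.31, and the WT ones 3.44, 3.68 and 3.85. Those ranges lie far apart, and the change of -1.48 ± 0.14 left 35.7% (limma adjusted p = 1.36e-09). Mrps36, named as a small-subunit protein but known as a subunit of the 2-oxoglutarate dehydrogenase complex, was 4.60, 4.78 and 4.80 in dmKO-labelled EDL and 5.75, 5.76 and 5.91 in WT EDL. The groups did not overlap, and the signal fell by 1.08 ± 0.10.

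Further large-subunit genes fell by about the same amount. Mrpl47 was 2.92, 3.15 and 3.47 in dmKO-labelled EDL, against 4.13, 4.14 and 4.50 in WT EDL (-1.08 ± 0.15). Mrpl15 was 1.93, 1.93 and 2.02 in dmKO-labelled EDL, against 2.92, 2.96 and 3.00 in WT EDL (-1.01 ± 0.088). Both encode counterparts of bacterial large-subunit proteins, and neither overlapped between the groups. Exons of Mrpl47 overlap those of the respiratory chain gene Ndufb5 on the other strand, which fell by 2.02, so its reads may be shared if counting ignored strand.

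Mrps9, the counterpart of a bacterial protein that reaches toward the transfer RNA in the peptidyl site, gave 2.57, 2.70 and 2.75 in dmKO-labelled EDL and 3.48, 3.65 and 3.83 in WT EDL (-0.99 ± 0.097). For Mrpl34 the values were 3.69, 4.02 and 4.14 in dmKO-labelled EDL and 4.79, 4.98 and 4.99 in WT EDL (-0.97 ± 0.15). Mrpl42, which has no bacterial counterpart and had the highest mean signal of the 77 genes (7.49 over all libraries), gave 6.76, 6.80 and 6.95 in dmKO-labelled EDL and 7.72, 7.79 and 7.81 in WT EDL (-0.94 ± 0.067). All 3, picked for the size of their falls, separated the groups fully. The largest limma adjusted p among these 8 falls was 2.31e-05, for Mrpl34.

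The only rise was that of Mrpl33, the counterpart of a bacterial large-subunit protein. It was 7.13, 7.17 and 7.21 in dmKO-labelled EDL and 6.82, 6.92 and 6.97 in WT EDL, groups that did not overlap. The change of 0.27 ± 0.089 passed the test narrowly (limma adjusted p = 0.0335). With libraries recentred on a common median it was 0.21 and was not called (limma adjusted p = 0.0713), and 5 of the 6 fits that left out 1 of its libraries lost the call.

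Falls were called in both subunits. Of the 48 large-subunit symbols, 27 fell and 1 rose (median change -0.40), and of the 29 small-subunit symbols 11 fell (median change -0.26). Among small-subunit symbols, 8 of 11 without a bacterial counterpart fell (median change -0.46), among them Mrps35, Mrps27 (-0.88 ± 0.13) and Mrps33 (-0.52). These 8 also include Mrps36, of the 2-oxoglutarate dehydrogenase complex, and Mrps30 (-0.30 ± 0.096), whose protein sits in the large subunit. Of 18 with a counterpart 3 fell (median change -0.16), namely Mrps9, Mrps5 (-0.69 ± 0.090) and Mrps11 (-0.49 ± 0.094). The large subunit ran the other way, with 19 of 29 symbols with a counterpart and 8 of 19 without one lower. These differences between groups of genes were not tested. Ordered by mean signal, 11 of the 26 lowest genes fell, 14 of the 25 in the middle and 13 of the 26 highest.

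Over all genes of this EDL comparison, 1489 were higher and 929 lower. Recentring gave 1011 higher and 1053 lower, and 45 of the 77 members were then lower. Among slow-fibre markers, 4 of 6 were called higher in the same samples (Myh7, Tnnc1, Tnni1 and Tnnt1). The summed signal of all 6 ran from 3.92 to 6.92 (log2) in dmKO-labelled libraries and from 4.07 to 6.28 in WT libraries. These ranges overlapped. Endothelial markers, all 8 detected and Kdr called lower, summed to 5.70 to 6.14 in dmKO-labelled EDL and 6.01 to 6.37 in WT EDL. Satellite cell markers, all 3 detected, summed to 0.15 to 0.86 in dmKO-labelled EDL and -0.48 to 0.03 in WT EDL, without overlap. Fibroblast markers, all 8 detected, summed to 8.27 to 8.69 and 7.87 to 8.35, which overlapped. All 6 slow-fibre markers were detected, and the part of these lists in the members' changes was not tested.

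Promoter sequences of 4 members from RefSeq (build GRCm38.p6, 250 bases before to 50 after the annotated start) are shown, since these genes include the largest fall in each muscle, a fall in the small subunit and the 1 gene called higher in both muscles. Mrpl12 lies at chr11:120484637-120488754, and its window is chr11:120484387-120484686. The windows of Mrpl14, Mrps9 and Mrpl33 are chr17:45686099-45686398, chr1:42850983-42851282 and chr5:31613701-31614000. The gene Mrpl14 begins at chr17:45685722, before its window, so that window belongs to an annotated start inside the gene. All 4 are read 5′ to 3′ on the plus strand, and capitals mark matches to GCGCA, any base, GCGC (the NRF-1 motif), to CCGGAAG, an ETS motif, or to AAGGTCA, the core of the ERR element, on either strand.
Mrpl12: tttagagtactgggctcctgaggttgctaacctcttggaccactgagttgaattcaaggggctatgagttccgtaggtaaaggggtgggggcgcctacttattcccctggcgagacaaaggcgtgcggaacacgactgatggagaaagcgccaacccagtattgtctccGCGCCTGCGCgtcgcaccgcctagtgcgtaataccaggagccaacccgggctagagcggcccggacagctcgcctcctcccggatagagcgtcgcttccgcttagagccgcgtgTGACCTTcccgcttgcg
Mrpl14: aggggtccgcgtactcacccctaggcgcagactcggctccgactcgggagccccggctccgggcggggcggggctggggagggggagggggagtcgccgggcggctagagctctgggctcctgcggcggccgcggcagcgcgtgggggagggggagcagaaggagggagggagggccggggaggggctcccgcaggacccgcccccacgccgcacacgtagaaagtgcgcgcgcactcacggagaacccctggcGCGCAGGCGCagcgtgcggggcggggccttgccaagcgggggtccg
Mrps9: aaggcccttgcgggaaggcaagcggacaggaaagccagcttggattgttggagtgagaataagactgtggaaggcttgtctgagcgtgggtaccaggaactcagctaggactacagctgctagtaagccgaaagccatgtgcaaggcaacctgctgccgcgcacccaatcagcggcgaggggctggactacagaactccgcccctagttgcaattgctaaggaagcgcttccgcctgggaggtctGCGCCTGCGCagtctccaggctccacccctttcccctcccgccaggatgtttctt
Mrpl33: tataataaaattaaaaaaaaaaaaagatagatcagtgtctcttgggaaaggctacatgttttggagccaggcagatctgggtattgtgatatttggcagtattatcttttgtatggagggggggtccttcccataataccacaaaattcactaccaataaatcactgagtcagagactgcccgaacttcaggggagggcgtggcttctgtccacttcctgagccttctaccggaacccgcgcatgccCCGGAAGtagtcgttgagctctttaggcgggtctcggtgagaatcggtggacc

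The table of promoters held 68 of the 77 genes. The ERR element TNAAGGTCA, searched on both strands, was in none of the 68, against 0.946% of the 10249 kept genes in the table and 1.43% of all 27025 genes in it. Its core AAGGTCA, which every match of the longer element contains, was in 4 of 68 (5.88%), against 3.95% of kept genes: Mrpl12, Mrpl36, Mrps15 and Mrps21. Of these, Mrpl12 and Mrpl36 were called lower in at least 1 muscle of the ERRalpha/ERRgamma class. The window says nothing of sites elsewhere.

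Motifs of 2 other factor families were more frequent in the members than in the kept genes. The NRF-1 motif was in 13 of 68 members (19.1%), against 1130 of the 10249 kept genes, and CCGGAAG in 25 of 68 (36.8%), against 18.9%. Among the 37 members with a promoter that fell in either muscle of the ERRalpha/ERRgamma class, 8 held the NRF-1 motif (21.6%) and 10 held CCGGAAG (27.0%). Among the other 31 members, 5 held the NRF-1 motif (16.1%) and 15 held CCGGAAG (48.4%). These shares are descriptions of letters in the windows and were not tested.

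In soleus of the ERRalpha/ERRgamma class, 34 of the 77 genes fell and 2 rose. The share of all genes called was 12.7%, with 5.86% lower and 6.84% higher. The members' median change was -0.22, against 0.114 over all genes, and 66 of 77 had a mean below WT. The large-subunit symbols had 24 of 48 lower and 1 higher (median change -0.27), the small-subunit symbols 10 of 29 lower and 1 higher (median change -0.16). Again 7 of the 11 small-subunit symbols without a bacterial counterpart fell, Mrps36 among them, and 3 of the 18 with one.

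Mrpl14 changed most in soleus. It encodes the counterpart of a bacterial protein at the face between the subunits, where the assembly factor Malsu1 binds. Its signal was 3.98, 4.22 and 4.25 in dmKO-labelled soleus and 5.34, 5.41 and 5.69 in WT soleus, with no overlap. The change of -1.33 ± 0.096 left 39.7% of the WT signal (limma adjusted p = 5.33e-11). Exons of Tmem63b overlap those of Mrpl14 on the other strand, and that gene fell by 0.75 in soleus, so shared reads are possible if strand was not used in counting.

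Mrps36 was 4.58, 4.99 and 5.02 in dmKO-labelled soleus, against 5.80, 5.82 and 5.83 in WT soleus (-0.95 ± 0.10). Mrpl18, the counterpart of the bacterial protein that binds 5S ribosomal RNA, was 4.93, 5.14 and 5.14 in dmKO-labelled soleus, against 5.80, 5.82 and 5.98 in WT soleus (-0.80 ± 0.096). Mrpl19 was low throughout, with 1.33, 1.38 and 1.40 in dmKO-labelled soleus and 1.97, 2.19 and 2.25 in WT soleus (-0.77 ± 0.12). The groups lay apart for all 3, which were picked for the size of their falls. The largest limma adjusted p of these falls was 3.86e-05, for Mrpl19. Mrpl18 shares exon sequence with the chaperonin gene Tcp1 on the other strand, which rose by 0.20, and Mrpl19 with Gcfc2.

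The genes that rose in soleus were Mrps18a and Mrpl33. Mrps18a, whose protein sits in the large subunit in spite of its name, was 6.28, 6.35 and 6.41 in dmKO-labelled soleus and 5.75, 5.91 and 6.06 in WT soleus, without overlap (0.44 ± 0.082, limma adjusted p = 0.000351). Mrpl33 was 7.33, 7.47 and 7.50 in dmKO-labelled soleus and 7.15, 7.15 and 7.19 in WT soleus (0.27 ± 0.089, limma adjusted p = 0.0453). Recentring ended that call (0.20, limma adjusted p = 0.114). In all, 7 of 12 alternatives lost it, among them the 6 libraries alone and fits with 1 library left out.

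Of all genes in this soleus comparison, 916 were higher and 785 lower, and recentring gave 551 higher and 910 lower, with 38 members lower and 1 higher. Leukocyte markers summed to 6.16 to 6.45 (log2) in dmKO-labelled soleus and 5.26 to 5.88 in WT soleus, with all 9 detected, 8 tested and none called. Endothelial markers, all 8 detected and 1 called lower (Tie1), summed to 6.24 to 6.49 in dmKO-labelled soleus and 6.58 to 6.62 in WT soleus. Fibroblast markers, all 8 detected and none called, summed to 8.94 to 9.21 in dmKO-labelled soleus and 7.96 to 8.99 in WT soleus. Their part in the members' changes was not tested.

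**Figure D2:**
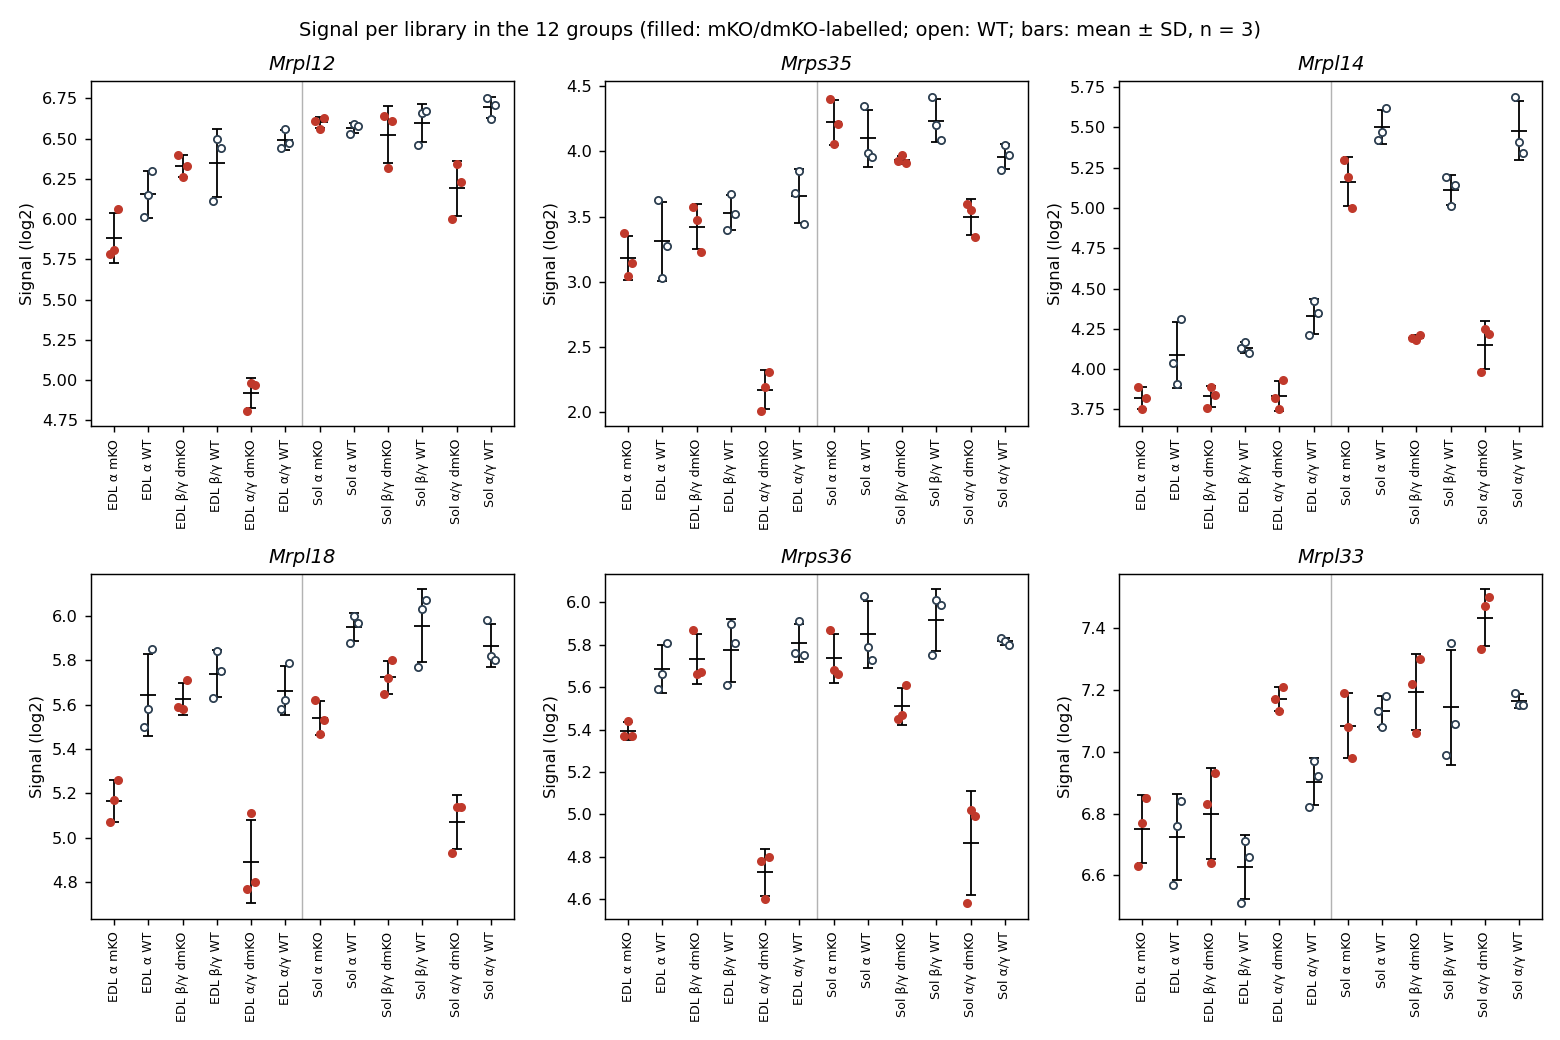
Log2 signal of 6 members in every library (points) of the 12 groups, with mean ± SD of 3 libraries. Filled points are mKO- or dmKO-labelled and open points WT, and EDL groups stand left of the line and soleus groups right of it. Mrpl12 and Mrps35 were lowest in dmKO-labelled EDL of the ERRalpha/ERRgamma class, while Mrpl14 was low in dmKO-labelled soleus of both dmKO classes, below WT soleus of the same class.

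Most genes that fell in one muscle fell in the other. Of the 38 members lower in EDL, 29 (76.3%) were also lower in soleus, where they made up 85.3% of the 34. Over all genes tested, 6.95% were lower in EDL and 5.86% in soleus. The overlap of calls over all genes was not counted, so this share may not be particular to the members. Across the 77 genes the changes in EDL and soleus had a Spearman rho of 0.80 and a Pearson r of 0.69, against 0.45 and 0.43 over 13342 genes tested in both. No library is shared between these comparisons, though 2 animals gave both muscles, and genes are not independent replicates.

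**Figure D3:**
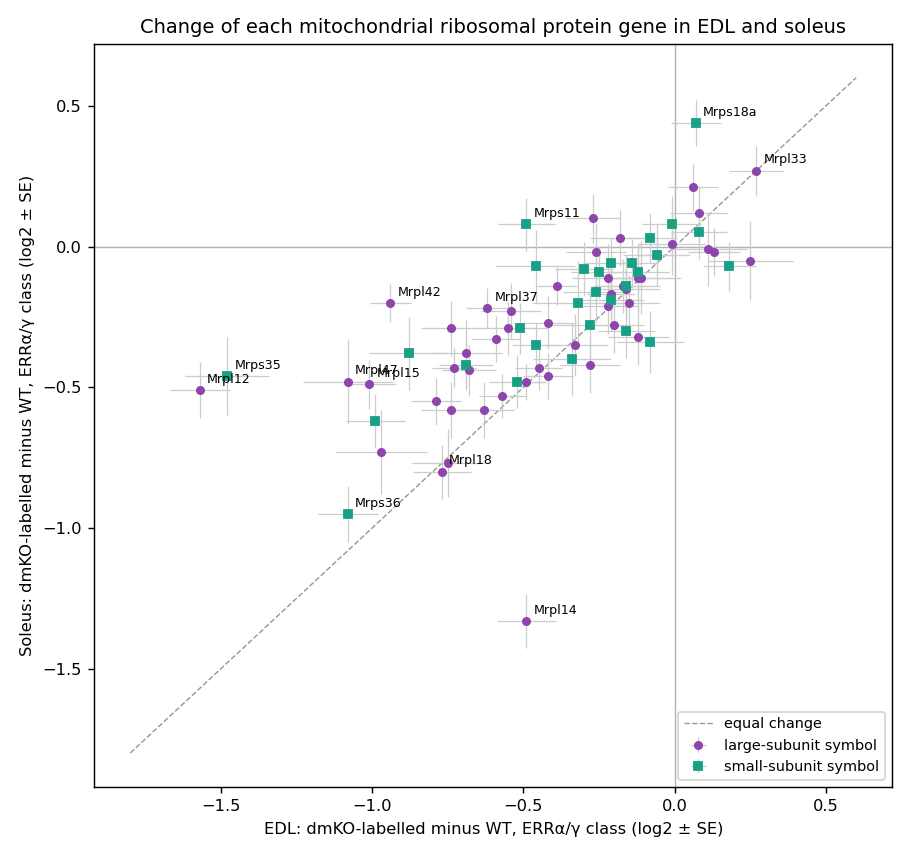
Change of each of the 77 genes in the ERRalpha/ERRgamma class, in EDL (x axis) and soleus (y axis), as log2 differences between dmKO-labelled and WT libraries (3 each) with SE bars, circles for large-subunit and squares for small-subunit symbols. Points above the dashed line fell less, or rose more, in soleus than in EDL. Mrpl12 and Mrps35 lie far above it and Mrpl14 far below it.

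A test of the difference between the muscles separated 7 genes, against 2.07% of all genes called, 1.5% higher and 0.57% lower. The change was more negative in EDL for 6 of them and more negative in soleus for Mrpl14. Mrpl12 changed by -1.57 in EDL and by -0.51 in soleus, a difference (soleus minus EDL) of 1.06 ± 0.14 (limma adjusted p = 1.12e-05). For Mrps35 the difference was 1.03 ± 0.20 (limma adjusted p = 0.0017), and for Mrpl14, which fell by 0.49 in EDL and by 1.33 in soleus, it was -0.84 ± 0.14 (limma adjusted p = 0.000222). Mrpl42 (0.74 ± 0.094), Mrps11 (0.57 ± 0.13), Mrpl15 (0.52 ± 0.12) and Mrpl37 (0.40 ± 0.10) made up the rest. Without EDL dmKO replicate 1 the count was 4.

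Mrps11 and Mrpl46 start 42 bases apart on opposite strands and have overlapping exons. Mrpl46 fell in both muscles, by 0.69 ± 0.12 in EDL and 0.38 in soleus. Mrps11 was 3.12, 3.17 and 3.45 in dmKO-labelled EDL and 3.60, 3.81 and 3.82 in WT EDL, but 3.68, 3.86 and 3.97 in dmKO-labelled soleus and 3.68, 3.77 and 3.83 in WT soleus. It thus separated the groups in EDL and overlapped in soleus (0.08, limma adjusted p = 0.657).

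Members often share a start region with another gene. A gene with a value starts on the other strand within 1000 bases of 24 members. Of 12 such partners of members that fell in EDL, 4 fell and 1 rose (median change -0.16), and of 10 partners of the other members 3 rose (median change 0.24), where 6.95% of all genes fell and 11.1% rose. Among the 4 that fell are Mrps11 and Mrpl46, which are members and partners of each other, so 2 genes outside the members fell. In EDL, Mrps27 fell together with its partner Ptcd2 (-0.76), a mitochondrial RNA-processing gene, and Mrpl47 together with Ndufb5. Mrpl18 fell where its partner Tcp1 rose by 0.42. In soleus, 2 of 8 partners of members that fell were lower and 1 higher (median change 0.03), and of 14 partners of the other members 2 were lower and 3 higher (median change 0.12), where 5.86% of all genes fell and 6.84% rose.

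In EDL of the ERRalpha class, 5 of 77 genes fell and the other 72 did not pass, against 3.28% of all genes called, 1.46% lower and 1.82% higher. The members' median change was -0.05, against 0.018 over all genes. Mrpl34 was 3.92, 3.98 and 3.99 in mKO-labelled EDL and 4.60, 4.64 and 4.90 in WT EDL (-0.75 ± 0.15, limma adjusted p = 0.00465). Mrpl18 was 5.07, 5.17 and 5.26 in mKO-labelled EDL and 5.50, 5.58 and 5.85 in WT EDL (-0.48 ± 0.096, limma adjusted p = 0.00355). Neither overlapped between the groups.

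Mrps33 encodes a small-subunit protein without a bacterial counterpart. It was 4.36, 4.43 and 4.62 in mKO-labelled EDL and 4.75, 4.81 and 4.90 in WT EDL (-0.35 ± 0.094), and Mrpl15 was 2.48, 2.54 and 2.56 in mKO-labelled EDL and 2.75, 2.75 and 3.06 in WT EDL (-0.33 ± 0.088). The fifth, Mrpl30, fell by 0.32 ± 0.083. All 5 separated the groups and all 5 also fell in both muscles of the ERRalpha/ERRgamma class. These 5 were picked by the test, and the share of all called genes that did the same was not counted. The count was 3 without mKO replicate 1 or 2 and 2 without mKO replicate 3 or WT replicate 3, and the 6 libraries tested alone gave 1.

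In soleus of the ERRalpha class, 2 of 77 genes fell, against 0.71% of all genes called, 0.247% lower and 0.464% higher, and the members' median change was 0.01. They were again Mrpl18 and Mrps33. Mrpl18 was 5.47, 5.53 and 5.62 in mKO-labelled soleus and 5.88, 5.97 and 6.00 in WT soleus (-0.41 ± 0.096, limma adjusted p = 0.0395). Mrps33 was 4.90, 4.99 and 5.14 in mKO-labelled soleus and 5.37, 5.40 and 5.42 in WT soleus (-0.39 ± 0.094, limma adjusted p = 0.0477). The groups did not overlap, but both calls were lost after recentring and in the 6 libraries alone, both were lost when any 1 of the 6 libraries was left out. Without mKO replicate 3 limma called 1 other member, as higher. No member's change differed between soleus and EDL in this class by limma, where 0.0151% of all genes were called, with 0% higher. An unadjusted p under 0.05 was found for 11 members and for 966 of all 13262 genes tested.

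In EDL of the ERRbeta/ERRgamma class, limma called none of the 77 genes, against 0.218% of all genes. An unadjusted p under 0.05 was found for 11 of the 77 and for 952 of all 13333 genes tested. The members' median change was 0.03. Mrpl14 had the lowest p, with 3.76, 3.84 and 3.89 in dmKO-labelled EDL and 4.10, 4.13 and 4.17 in WT EDL. Those ranges did not overlap, and the change of -0.30 ± 0.096 did not pass (limma adjusted p = 0.321). Slow-fibre markers summed to 3.6 to 4.91 (log2) in dmKO-labelled EDL and 6.27 to 6.39 in WT EDL of this class, without overlap. Fast-fibre markers summed to 14.17 to 14.25 and 14.11 to 14.2, which overlapped. The part of these markers in the members' changes was not tested.

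In soleus of the ERRbeta/ERRgamma class, 2 genes fell and 2 rose, against 6.71% of all genes called, 3.55% lower and 3.16% higher. Mrpl14 was 4.18, 4.19 and 4.21 in dmKO-labelled soleus and 5.01, 5.14 and 5.19 in WT soleus, well apart (-0.92 ± 0.096, limma adjusted p = 1.6e-06). Mrps36 was 5.45, 5.47 and 5.61 in dmKO-labelled soleus and 5.75, 5.99 and 6.01 in WT soleus (-0.40 ± 0.10). The genes that rose were Mrpl20 and Mrps18a.

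Mrpl20 was 4.22, 4.55 and 4.57 in dmKO-labelled soleus and 3.93, 4.14 and 4.23 in WT soleus, with a slight overlap (0.35 ± 0.10, limma adjusted p = 0.0381). Mrps18a was 5.68, 5.98 and 5.99 in dmKO-labelled soleus and 5.47, 5.60 and 5.65 in WT soleus, without overlap (0.31 ± 0.082, limma adjusted p = 0.0195). Recentring gave 4 lower and none higher among the members, and 304 higher and 605 lower among all genes, where the fit as deposited gave 422 higher and 475 lower. The count was 2 without dmKO replicate 1 or WT replicate 1 or 3, 7 without dmKO replicate 2, and 1 in the 6 libraries alone. Fibroblast markers, 1 of 8 called higher, summed to 7.54 to 9.19 in dmKO-labelled soleus and 7.25 to 8.42 in WT soleus, and their part was not tested.

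The change of Mrpl14 differed between the muscles in this class, by -0.62 ± 0.14 (soleus minus EDL, limma adjusted p = 0.0458), against 0.21% of all genes called. It was the only member called, and the call was lost on leaving out any of the 12 libraries except soleus dmKO replicate 2. In the ERRalpha class Mrpl14 was not called in either muscle, but it was lower in both, without overlap of the groups. The change in that class was -0.27 ± 0.096 in EDL (limma adjusted p = 0.138) and -0.34 ± 0.096 in soleus (limma adjusted p = 0.11).

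Classes were also compared directly, as differences between their changes. In EDL the ERRalpha/ERRgamma change was below the ERRalpha change for 24 of 77 genes, against 4.81% of all genes called, 3.48% lower and 1.33% higher, led by Mrps35 (-1.36 ± 0.20), Mrpl12 (-1.30 ± 0.14) and Mrpl47 (-1.28 ± 0.22). It was below the ERRbeta/ERRgamma change for 35 genes, against 6.87% of all genes called, 4.06% lower and 2.81% higher, led by Mrpl12 (-1.56 ± 0.14), Mrps35 (-1.38 ± 0.20) and Mrpl47 (-1.28 ± 0.22). These contrasts share the ERRalpha/ERRgamma libraries.

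In soleus the ERRalpha/ERRgamma change was below the ERRalpha change for 18 genes, against 4.77% of all genes called, 2.93% lower and 1.83% higher, with Mrpl19 (-1.02 ± 0.17), Mrpl14 (-0.99 ± 0.14) and Mrps36 (-0.84 ± 0.15) first. Against the ERRbeta/ERRgamma change it was lower for 2 genes, Mrpl18 (-0.56 ± 0.14) and Mrpl51 (-0.45 ± 0.091), against 1.2% of all genes called, 0.883% lower and 0.322% higher. That last count was 1 without dmKO replicate 1 of the ERRalpha/ERRgamma class, or without WT replicate 1 or dmKO replicate 3 of the ERRbeta/ERRgamma class. It was 6 without dmKO replicate 3 of the ERRalpha/ERRgamma class and 7 without dmKO replicate 2 of the ERRbeta/ERRgamma class.

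Over the 6 comparisons with WT, 31 of the 77 genes were never called. Mrpl18 and Mrps33 were lower in 4 of the 6, and Mrpl14, Mrpl15, Mrpl30, Mrpl34 and Mrps36 in 3. Another 22 were lower in 2 comparisons and 14 in 1. Calls across the 6 comparisons were not counted over all genes, so this pattern may not be particular to the members. Among the genes never called were Mrpl53 and Mrps21, with mean signals of 6.03 and 6.47 over all libraries, among the highest of the 77.

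WT soleus and WT EDL were compared over 9 libraries each to set the baseline. Of the 77 genes, 46 were higher and 5 lower in soleus, against 54.4% of all genes called, 30.8% higher and 23.6% lower. The median difference (soleus minus EDL) was 0.18, against 0.077 over all genes. Among large-subunit symbols 32 of 48 were higher and 3 lower, and among small-subunit symbols 14 of 29 were higher and 2 lower. Recentring gave 33 members higher and 7 lower, against 3509 higher and 3640 lower of all 13270 genes tested.

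Mrpl14 differed most between the muscles. It ran from 5.01 to 5.69 in WT soleus, with a median of 5.41, and from 3.91 to 4.42 in WT EDL, with a median of 4.17. The ranges did not meet, and the difference was 1.18 ± 0.056, or 227% of the EDL signal (limma adjusted p = 8.83e-17). Mrpl41, which has no bacterial counterpart, ran from 3.11 to 3.55 in soleus (median 3.41) and from 2.45 to 2.92 in EDL (median 2.70), a difference of 0.69 ± 0.058.

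Mrps35 ran from 3.86 to 4.42 in soleus (median 4.05) and from 3.03 to 3.85 in EDL (median 3.52), and the difference was 0.60 ± 0.080. Mrps9 ran from 4.05 to 4.37 in soleus (median 4.16) and from 3.48 to 3.83 in EDL (median 3.61), a difference of 0.54 ± 0.056. All 4 of these genes, picked for the size of their differences, separated the muscles. Mrps35 and Mrps9 were also among the 8 largest falls of EDL in the ERRalpha/ERRgamma class. So was Mrpl42, which was higher in WT EDL than in WT soleus. In that EDL comparison Mrpl14 changed by -0.49 ± 0.096, and Mrpl41 (-0.22 ± 0.10) was not called.

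In the other direction Mrpl42 ran from 7.29 to 7.52 in soleus (median 7.42) and from 7.72 to 7.87 in EDL (median 7.79), with no overlap (-0.37 ± 0.038, limma adjusted p = 2.49e-09). Mrpl23 ran from 3.86 to 4.16 in soleus (median 3.98) and from 4.19 to 4.56 in EDL (median 4.38), a difference of -0.34 ± 0.056. Mrps21 ran from 6.18 to 6.45 in soleus (median 6.37) and from 6.37 to 6.74 in EDL (median 6.59), a difference of -0.24 ± 0.053. For Mrpl50 the range was 4.10 to 4.67 in soleus (median 4.51) and 4.44 to 4.88 in EDL (median 4.58), a difference of -0.20 ± 0.057. These 2 genes and Mrps18b (-0.16 ± 0.060) overlapped between the muscles.

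Subunit medians were taken per library to set the large subunit against the small one over all groups. The median over the 48 large-subunit symbols was 3.96 ± 0.062 in dmKO-labelled EDL of the ERRalpha/ERRgamma class and 4.39 ± 0.034 in its WT (SD, n = 3 each), and in soleus it was 4.20 ± 0.094 in dmKO-labelled and 4.54 ± 0.028 in WT libraries. The median over the 29 small-subunit symbols was 4.29 ± 0.15 in dmKO-labelled and 4.44 ± 0.051 in WT EDL, and 4.40 ± 0.13 in dmKO-labelled and 4.57 ± 0.057 in WT soleus. The large-subunit medians separated the groups in both muscles, while the small-subunit medians overlapped in EDL.

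The large-subunit median lay 0.32 ± 0.16 below the small-subunit median in dmKO-labelled EDL and 0.05 ± 0.021 below it in WT EDL of that class. In soleus the large-minus-small value was -0.20 ± 0.048 in dmKO-labelled and -0.03 ± 0.084 in WT libraries. With Mrps30 and Mrps18a, whose proteins sit in the large subunit, moved there and Mrps36 left out, these values were -0.24 ± 0.062 and -0.02 ± 0.013 in EDL, and 0.01 ± 0.072 and 0.05 ± 0.073 in soleus. With means over the members in place of medians, the large-minus-small value was -0.11 ± 0.020 in dmKO-labelled and -0.05 ± 0.036 in WT EDL, with touching ranges, and -0.09 ± 0.039 in dmKO-labelled and -0.01 ± 0.023 in WT soleus. The size of the gap thus depended on the use of medians in both muscles, and in soleus also on where 3 genes were counted. In the other classes the dmKO- and mKO-labelled values ran from -0.32 to 0.08 and the WT values from -0.24 to 0.19 over single libraries.

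**Figure D4:**
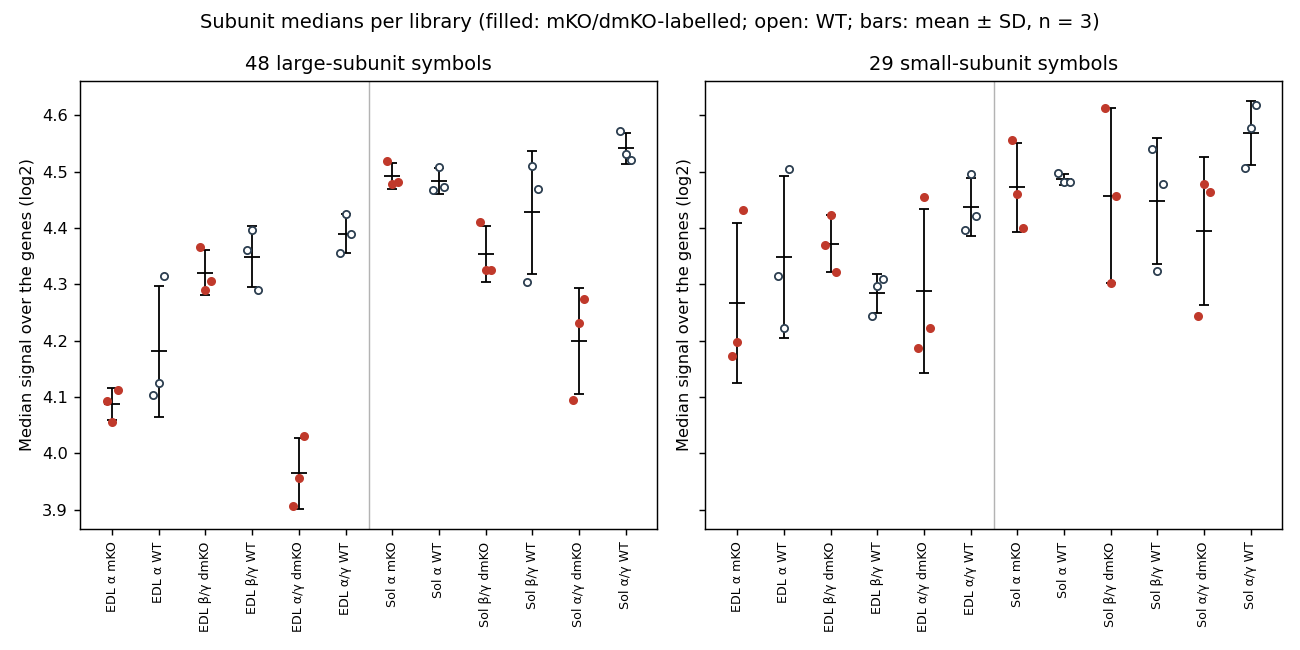
Median log2 signal over the 48 large-subunit symbols (left) and the 29 small-subunit symbols (right) in each library (points), with mean ± SD of 3 libraries per group. Filled points are mKO- or dmKO-labelled and open points WT. The large-subunit medians of the ERRalpha/ERRgamma class averaged 3.96 in dmKO-labelled and 4.39 in WT EDL, and 4.20 in dmKO-labelled and 4.54 in WT soleus.

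Other genes of mitochondrial translation also changed in the ERRalpha/ERRgamma class. Of 6 ribosomal proteins with symbols of another kind, 3 fell in EDL: Ptcd3, a pentatricopeptide protein of the small subunit (-0.74 ± 0.085), Dap3, its GTP-binding protein (-0.38 ± 0.088), and Gadd45gip1 of the large subunit (-0.34 ± 0.11). In soleus Ptcd3 (-0.60 ± 0.085) and Dap3 (-0.38 ± 0.088) fell and Chchd1, of the small subunit, rose (0.34 ± 0.087). Of 27 genes for assembly and ribosomal RNA modification, 13 fell in EDL, with a median change of -0.31. The largest of these falls were in Rnmtl1 (-1.24 ± 0.15) and Mrm1 (-1.03 ± 0.28), methyltransferases of the large ribosomal RNA, and Grsf1 (-0.86 ± 0.10), an RNA-granule protein. In soleus 6 fell and 1, the large-subunit assembly factor Mpv17l2, rose (0.48 ± 0.15), and recentring gave 7 lower and none higher.

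Of 19 translation factors and proteins that handle mitochondrial messages, 12 fell in EDL (median change -0.65) and 12 in soleus (median change -0.43). The elongation factor Gfm1 was 3.78 ± 0.054 in dmKO-labelled EDL and 5.06 ± 0.14 in WT EDL (SD, n = 3 each), a change of -1.28 ± 0.096. Tufm, the factor that brings transfer RNA to the ribosome, changed by -0.91 ± 0.087 in EDL and -0.61 ± 0.087 in soleus, and Lrpprc, which stabilises mitochondrial messages, by -1.08 ± 0.10 in EDL and -0.77 ± 0.10 in soleus. Taco1, the activator of cytochrome oxidase subunit synthesis, fell by 1.11 ± 0.11 in EDL and 0.76 ± 0.11 in soleus.

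Of 20 genes for loading mitochondrial transfer RNAs, 12 fell in EDL (median change -0.46) and 6 in soleus (median change -0.31). Qrsl1, of the glutamyl-tRNA amidotransferase, fell by 1.10 ± 0.098 in EDL and 0.70 ± 0.098 in soleus, and Fars2, the phenylalanyl synthetase, by 0.98 ± 0.099 in EDL and 0.65 ± 0.099 in soleus. Lars2 was called lower in EDL (-1.66 ± 0.43), with 4.18, 4.45 and 4.58 in dmKO-labelled libraries and 4.85, 5.04 and 8.29 in WT libraries, so 1 WT library carried most of that difference.

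Nuclear-encoded respiratory chain genes and cytosolic ribosomal proteins stood on either side of the members. In EDL of the ERRalpha/ERRgamma class 77 of 80 respiratory chain genes fell, with a median change of -1.28, and in soleus 68 fell, with a median change of -0.61. Of 84 cytosolic ribosomal protein genes tested, 75 rose in EDL (median change 0.50) and 58 in soleus (median change 0.36), and after recentring 72 and 49 rose. In EDL of the ERRalpha class 43 of the 80 respiratory chain genes fell (median change -0.29), where 5 of the 77 members did. Differences between lists were not tested.

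**Figure D5:**
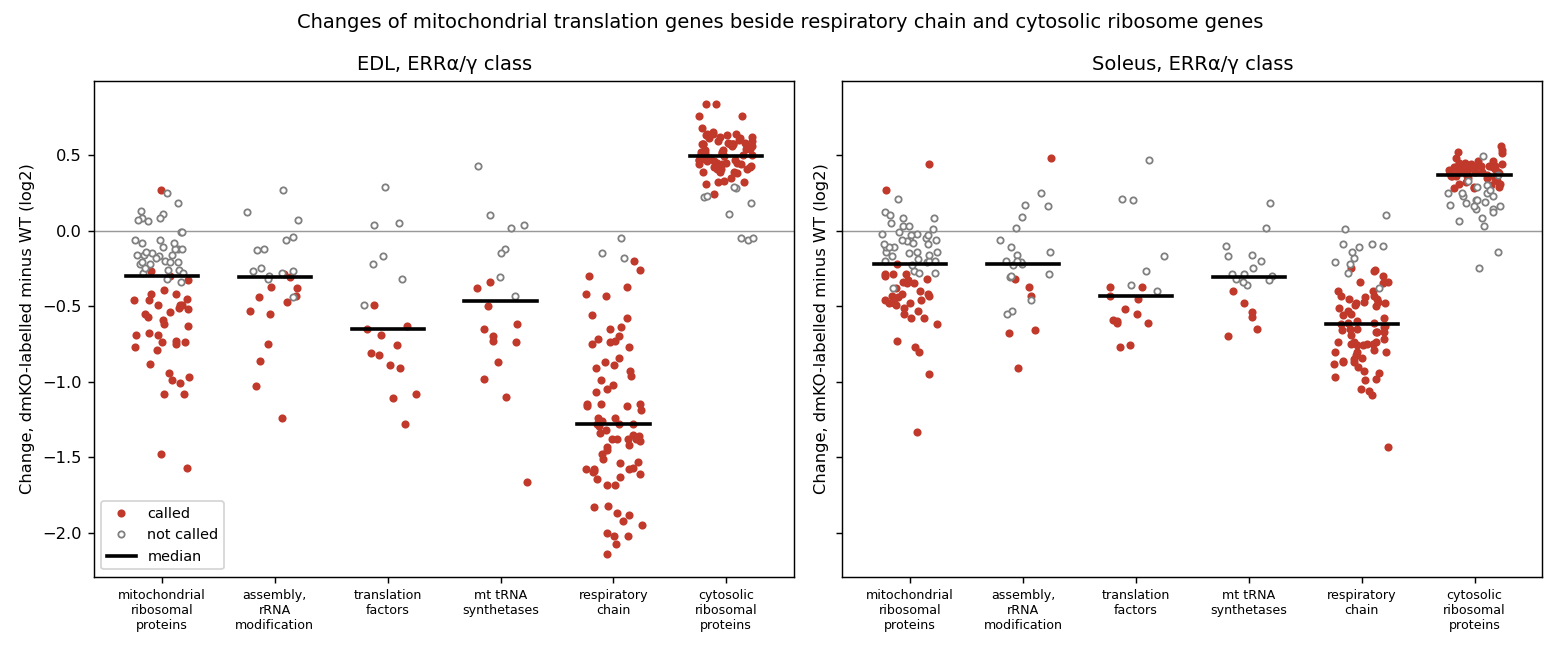
Log2 change (dmKO-labelled minus WT, 3 libraries each) of each gene (points) of 6 lists in EDL (left) and soleus (right) of the ERRalpha/ERRgamma class, with filled points for called genes and a line at each list's median. The members' medians of -0.30 and -0.22 lie between the respiratory chain medians (-1.28 and -0.61) and the cytosolic ribosomal protein medians (0.50 and 0.36).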

How the data were processed

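Each library gave 1 column of signals, which per the labels' protocols came from directional RNA-seq libraries. Per the submitters' processing notes, Partek 6.6 and the builds GRCm38.p6 and mm10 were used. The deposited log2 signals were quantile normalized by the authors, as the name of their table says, and base 2 was read from the spacing of the lowest values. Empty cells count as not detected. How reads were aligned and counted, with or without strand, is not given in the sources used here, nor is the unit that was logged. Signals of low genes fell with exon length (slope -0.85 ± 0.038 per doubling), as in values scaled by length.

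Columns were matched to groups by muscle, class letters and Cre mark, with FXp read as floxed with Cre. For EDL of the ERRalpha class the column names lack that letter, and animal numbers shared with soleus placed them. Replicate numbers follow column order and serve as names. Of 22 animals, 14 gave both muscles. Deviations of libraries of the same animal correlated by -0.07 to 0.32 (median 0.1).

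Genes were kept where the mean signal, with missing values at -8.21, exceeded -5.24, which left 13404. Tests used limma 3.58.1 under R 4.3.3 (intensity trend, all 36 libraries, 12 group means, Benjamini-Hochberg per contrast), checked on simulated data. Members, lists and tests were chosen with earlier results of these data known. Values of every library are given for the 8 largest falls in EDL of the ERRalpha/ERRgamma class, up to 4 called members each way in other comparisons, or the member with the lowest p. Alternatives were recentring, no filter, a pseudocount of 1, missing values at the lowest value, a block for animals, the 6 libraries alone, and leaving out each library.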

Additional observations from a re-analysis of the deposited data

Results flagged for a closer look

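The change in the ERRalpha/ERRgamma class differed between soleus and EDL for 7 members, by limma's test of the difference (soleus minus EDL). It was more negative in EDL for Mrpl12 (1.06), Mrps35 (1.03), Mrpl42 (0.74), Mrps11 (0.57), Mrpl15 (0.52) and Mrpl37 (0.40). It was more negative in soleus for Mrpl14 (-0.84). In the ERRbeta/ERRgamma class the change of Mrpl14 was also more negative in soleus (-0.62), a call that 11 of the 12 fits with 1 library left out did not keep. Mrpl14 and Mrps11 share exon sequence with a gene on the other strand, and whether counting used strand is not given in the sources used here.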

How the results depend on the processing

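The ERRalpha/ERRgamma counts of 39 members in EDL and 36 in soleus kept within 1.5 times under every alternative run, and leaving out a library gave 35 to 37 in EDL and 25 to 31 in soleus. The replicate block for animals changed no call of a named member and gave 39 and 38. For the ERRalpha class, the 6 libraries alone gave 1 call in EDL and 0 in soleus, recentring gave 0 in soleus and no filter gave 1 there. Leaving out a library gave 2 to 4 in EDL and 0 to 1 in soleus. For the ERRbeta/ERRgamma class in soleus the 6 libraries alone gave 1, and leaving out a library 2 to 7. With a library left out, the tests between muscles gave 0 to 1 in the ERRbeta/ERRgamma class and 4 to 7 in the ERRalpha/ERRgamma class, and the test between dmKO classes in soleus gave 1 to 7. Where 1 library was left out, the remaining 2 shared the spread of all groups. Of the values of named members under alternatives, 697 kept their status as called or not called, 71 lost a call and none reversed. The 697 include Mrpl14 in EDL of the ERRbeta/ERRgamma class and Mrpl15 in the ERRalpha test between muscles, which had no call to lose. The cause of these shifts was not tested, apart from the fewer libraries. Depth is unknown, so small changes of low genes cannot be told from counting error.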
